A study of Mus musculus with 8 samples.

Results

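The 57 genes described here encode parts of the mitotic machinery: the kinases and cyclins that start mitosis, the checkpoint that holds anaphase back, the kinetochores, the kinesin motors, the spindle assembly factors, the condensins, the chromosomal passenger complex and the cytokinesis proteins. They were taken by name, with earlier results of these data known, out of 19751 genes that had a symbol on the array. RNA came from AtT20 cells, a mouse line derived from a corticotroph tumor of the pituitary, which secretes ACTH. All cells were kept for 48 hr in medium with a low share of stripped serum, either without HX630 (control, 4 samples) or with HX630 at 10 μM (4 samples). HX630 was dissolved in DMSO, and the labels do not state whether the control samples received the solvent, so each difference below may include its effect. HX630 is a synthetic agonist of the retinoid X receptors (RXRs), nuclear receptors that control transcription as homodimers or with partner receptors. Each sample was hybridized to 1 one-color array. The line is a single tumor cell line. Its labels do not state whether the 4 samples of a group came from separate cultures, so the p-values below measure the spread between these samples, which may be technical.

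Signals are given on the log2 scale relative to the 75th percentile of the array, so that a signal of 0 equals that percentile and a difference of 1 is a doubling. Of the 57 genes, 56 were tested, and each of them was well above background on all 8 arrays, with no saturated spot. The probe of Aurkb, the catalytic subunit of the chromosomal passenger complex, was well above background on 0 of 8 arrays and was not tested. A gene with several tested probes is represented by the brightest of them.

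Before the results, a few properties of the whole set of arrays have to be stated. All 4 control arrays were on 1 slide, read in 1 scan, and all 4 HX630 arrays were on another, so the effect of HX630 cannot be told apart from that of slide or scan in any comparison below. The 75th percentile of the intensities was 1335 to 1863 on the control arrays and 1803 to 1899 on the HX630 arrays. Correlations between arrays were 0.994 to 0.998 within groups and 0.978 to 0.984 between groups. All 6 corticotroph markers examined were well above background on all arrays, and their summed linear level was 519 to 652 in control and 400 to 424 in HX630, in units of the 75th percentile. Of the markers of other cells, 2 of 6 for other pituitary cells were above background on all arrays (summed level 0.142 to 0.263 in control and 0.171 to 0.192 in HX630, with Tshb and Prl above background on 0 arrays). The count was 3 of 5 for fibroblasts (0.101 to 0.126 and 0.111 to 0.160, with Pdgfra on 0 arrays), 3 of 3 for blood cells (2.31 to 2.95 and 0.973 to 1.11) and 2 of 3 for endothelium (2.70 to 3.35 and 2.15 to 2.63, with Cdh5 on 0 arrays). At an adjusted p below 0.01 the corticotroph markers did not move together: Pcsk1 (-2.06), Pomc (-0.45), Chga (-0.39) and Tbx19 (-0.37) were lower in HX630, and Crhr1 (1.11) and Neurod1 (0.72) were higher. Of the other markers, Gh (-0.79), Cd3e (-1.44), Ptprc (-0.45), Pecam1 (-0.59) and Kdr (-0.36) were lower and the fibroblast marker Dcn (1.04) was higher. Their part in the results was not tested.

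Mitosis is prepared in G2 phase, when cyclin B and its kinase Cdk1 accumulate together with the proteins that will build the spindle. Most of these genes are transcribed little in quiescent cells and strongly late in the cell cycle, which is why their mRNAs serve as a measure of cycling cells in tumors. Their promoters are known to be held down by the DREAM complex in resting cells and turned on by B-Myb and FoxM1 in G2 phase.

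The signals of the mitotic genes were higher in the HX630 samples almost throughout the list, by small amounts. Of the 56 genes tested, 54 had a higher mean in HX630 and 2 had a lower mean (Cdc25b and Racgap1), while 46.4% of all 15320 genes tested had a higher mean. At an adjusted p below 0.01, 45 of 56 (80.4%) were higher, beside 24% of all genes, and 0 of 56 were lower, beside 27.2% of all genes. The median difference of the 56 genes was 0.31, a fold change of 1.24, against a median of -0.03 over all genes tested. The differences of the mitotic genes ranged from -0.08 to 0.74 with an SD of 0.166, whereas the SD over all genes was 0.629. In RNA from whole wells, a larger share of cells in G2 phase and mitosis and more of these mRNAs per cell cannot be told apart. The paper that reported these data found that HX630 at the same dose suppressed AtT20 proliferation and induced apoptosis. Those assays followed a longer incubation. From its own list of changed genes on these arrays, the paper also predicted a decrease in proliferation. How the higher mitotic signals relate to those results was not tested.

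Few of these differences were large. At an adjusted p below 0.01 together with a fold change above 1.5, 2 of 56 mitotic genes were higher (Cenpk and Nusap1), beside 8.38% of all genes, and 0 were lower, beside 11.2% of all genes. Ccnb2 fell just short of that fold with 1.497. The number above 1.5-fold depended on the scaling: it was 8 with the median of each array, 7 with quantile normalization, 4 with normexp background correction and 22 with the spike-in control probes, which moved the median of all genes by 0.22, more than any other setting. Without control replicate 1 it was 4. A constant shift of an array does not change the gap between the median of the mitotic genes and that of all genes. The mitotic median was 0.34 above that of all genes, 0.35 above it after quantile normalization and 0.41 above it with normexp.

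In 47 of 56 genes (83.9%), every HX630 array lay above every control array, which was the case for 28.6% of all genes tested. In no mitotic gene did every HX630 array lie below every control array, beside 32.8% of all genes. For each of these 47 genes the exact permutation test over the 70 regroupings of the 8 arrays gave a two-sided p of 0.0286, the smallest that 4 arrays against 4 allow. The groups overlapped in Cdk1, Cdc25b, Ttk, Bub3, Cenpa, Kif4, Gtse1, Ckap2 and Racgap1. The same 9 genes, with Smc4 and Ect2, make up the 11 that did not pass an adjusted p of 0.01.

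**Figure D1:**
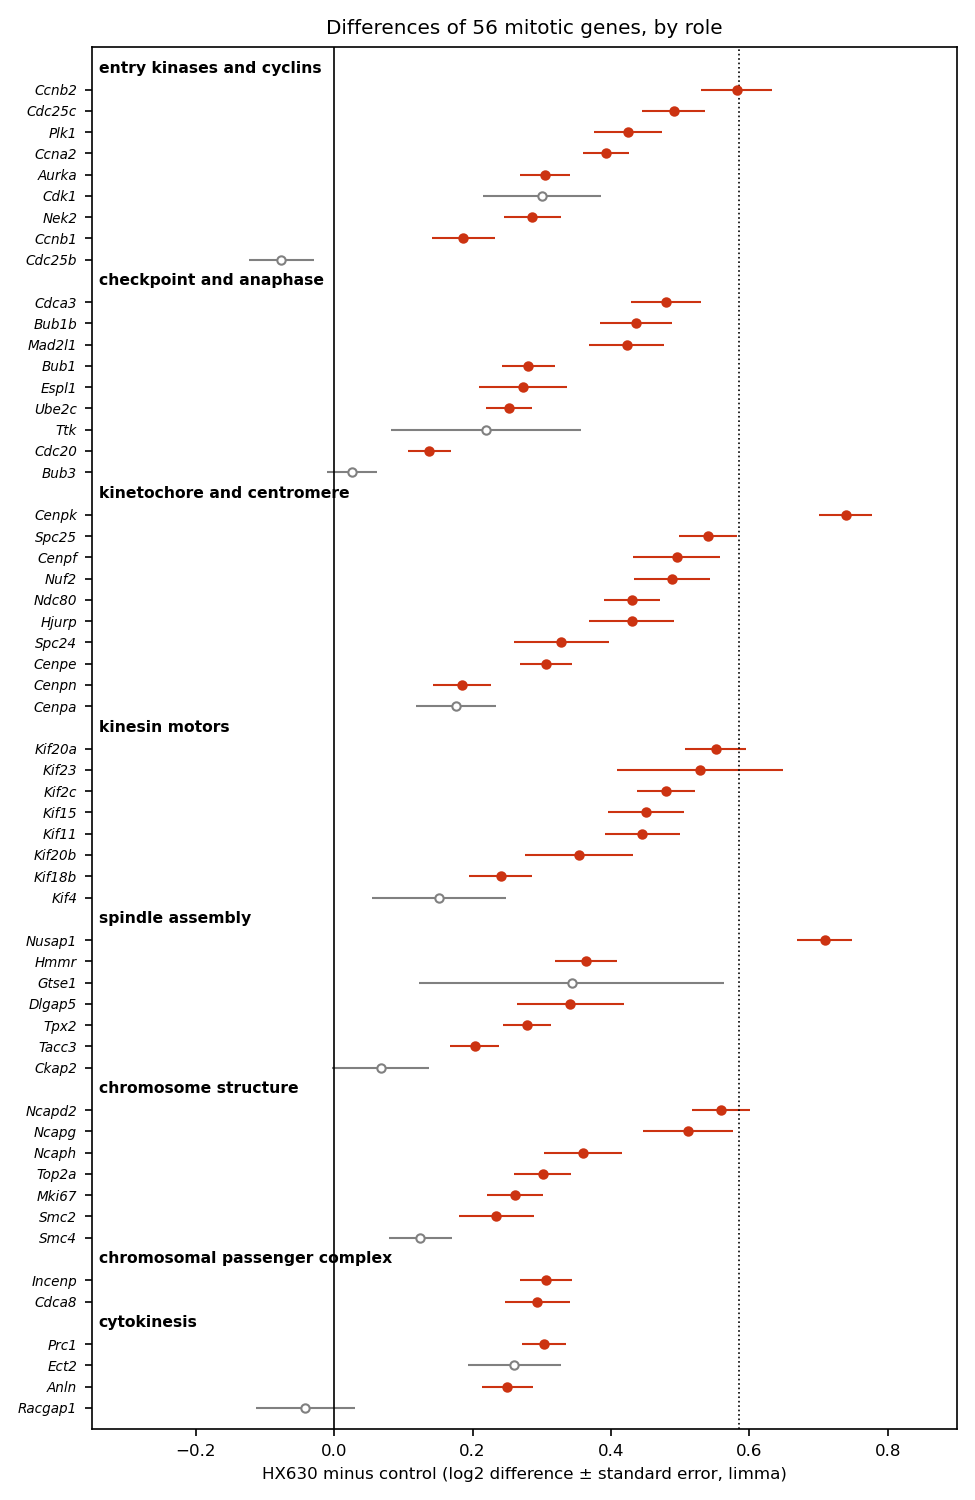
Difference between HX630 and control (horizontal axis, log2, with its standard error from limma) for the 56 mitotic genes tested, grouped by role; filled red points passed an adjusted p of 0.01 and open grey points did not, and the dotted line marks a fold change of 1.5. All but Cdc25b and Racgap1 lie to the right of 0, and Cenpk and Nusap1 lie beyond the dotted line.

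The shift was seen on each treated array. After subtraction of the control mean of each gene, the median of the 56 genes was 0.32, 0.33, 0.33 and 0.30 on HX630 arrays 1 to 4, and 0.02, 0.05, -0.03 and -0.03 on the control arrays. Over all genes tested the same medians were -0.0030, -0.03, -0.05 and -0.04 on the HX630 arrays. The lowest of the 4 treated arrays stood above the highest control array.

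**Figure D2:**
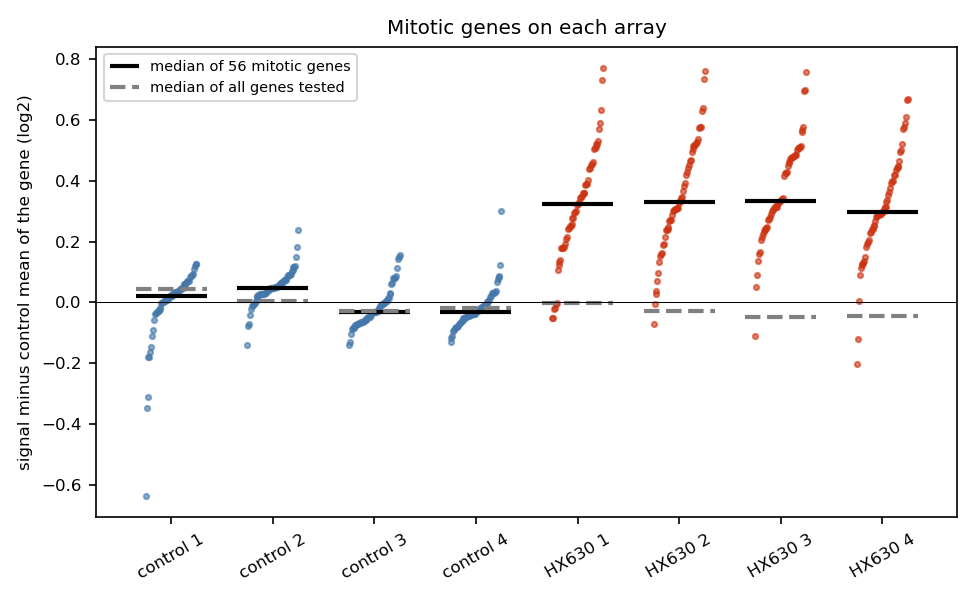
Signal of each of the 56 mitotic genes on each array minus the mean of that gene over the control arrays (vertical axis, log2), with the points of an array sorted by size; solid bars are the median of the mitotic genes and dashed bars the median of all genes tested. The solid bars lie between 0.30 and 0.33 on the HX630 arrays and between -0.03 and 0.05 on the control arrays, while the dashed bars stay near 0 in both groups.

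The sequence at the start sites of these genes was examined for a pair of elements known from mitotic promoters. These are the CHR (cell cycle genes homology region), through which DREAM and the B-Myb complex bind, and the CCAAT box, which binds NF-Y. The genes were taken by name as mitotic genes, so their share of these elements cannot be read as a result of HX630. The CHR was searched as TTTGAA and as TTCGAA and the CCAAT box as CCAAT, each on both strands. None of these 3 motifs contains another, and TTCGAA reads the same on both strands. RefSeq promoters (GRCm38.p6, 250 bases before to 50 bases after the start of the gene, 27025 genes) held 48 of the 57 genes. In the 250 bases before the start, CCAAT occurred in 79.2% of the mitotic promoters and in 34.5% of all promoters, and 2 or more CCAAT boxes occurred in 45.8% and 10.5%. TTTGAA occurred there in 35.4% and 16.3%, and TTCGAA in 4.17% and 1.34%. Either CHR form occurred there in 37.5% and 17.4%, and CHR and CCAAT together in 33.3% and 6.21%.

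Most promoters with a CHR match had one close to the start. Over all 300 bases, either CHR form occurred in 38 of 48 mitotic promoters (79.2%) and in 19.4% of all promoters, and CHR and CCAAT occurred together in 33 of 48 (68.8%) and in 7.70%. In a window from 40 bases before to 50 bases after the start, chosen after the positions had been seen, 33 of 48 mitotic promoters had a CHR match, beside 4.72% of all promoters. These are matches of letters, not sites shown to be bound.

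The stretches from 100 bases before to 30 bases after the start are shown for both genes above 1.5-fold, for Ccnb2, Cdk1 and Hmmr, which hold several of the elements, and for both genes with a lower mean. Capitals mark CHR matches and CCAAT boxes, a box on the opposite strand reading ATTGG. The stretches lie at chr13:104228511-104228640 on the plus strand for Cenpk, chr2:119618198-119618327 on the plus strand for Nusap1, chr9:70421525-70421654 on the minus strand for Ccnb2, chr10:69352883-69353012 on the minus strand for Cdk1, chr11:40733408-40733537 on the minus strand for Hmmr, chr2:131186848-131186977 on the plus strand for Cdc25b and chr15:99651627-99651756 on the minus strand for Racgap1.
Cenpk: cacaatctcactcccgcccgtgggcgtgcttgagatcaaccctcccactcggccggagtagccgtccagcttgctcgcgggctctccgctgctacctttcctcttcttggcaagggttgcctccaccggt
Nusap1: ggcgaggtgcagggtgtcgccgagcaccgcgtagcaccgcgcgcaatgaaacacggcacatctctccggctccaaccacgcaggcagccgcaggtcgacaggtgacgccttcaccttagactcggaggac
Ccnb2: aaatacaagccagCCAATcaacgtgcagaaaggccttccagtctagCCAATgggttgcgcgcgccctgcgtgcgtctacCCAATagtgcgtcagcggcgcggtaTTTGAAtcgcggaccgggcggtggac
Cdk1: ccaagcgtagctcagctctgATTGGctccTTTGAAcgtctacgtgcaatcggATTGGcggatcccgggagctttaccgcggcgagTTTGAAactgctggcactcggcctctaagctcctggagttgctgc
Hmmr: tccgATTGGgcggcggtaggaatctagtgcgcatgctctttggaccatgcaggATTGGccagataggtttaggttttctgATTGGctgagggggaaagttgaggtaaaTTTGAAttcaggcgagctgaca
Cdc25b: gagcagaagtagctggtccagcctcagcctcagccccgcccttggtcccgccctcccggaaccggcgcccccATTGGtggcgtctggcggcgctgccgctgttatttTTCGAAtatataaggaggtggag
Racgap1: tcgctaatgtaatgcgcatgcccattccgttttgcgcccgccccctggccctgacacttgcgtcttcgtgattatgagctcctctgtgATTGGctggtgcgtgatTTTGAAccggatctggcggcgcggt

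The genes that rose most did not all hold these elements. Cenpk and Nusap1 held no match in these 130 bases, although Cenpk had a CCAAT box 159 bases before its start, and Cdc25b and Racgap1, which did not pass the test, held both elements. The 38 genes with a CHR match had a median difference of 0.30 (range -0.08 to 0.58), and the 10 without had a median of 0.35 (range 0.19 to 0.74). For CCAAT the medians were 0.30 in 38 genes with a match and 0.43 in 10 without. No test was made between these groups.

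**Figure D3:**
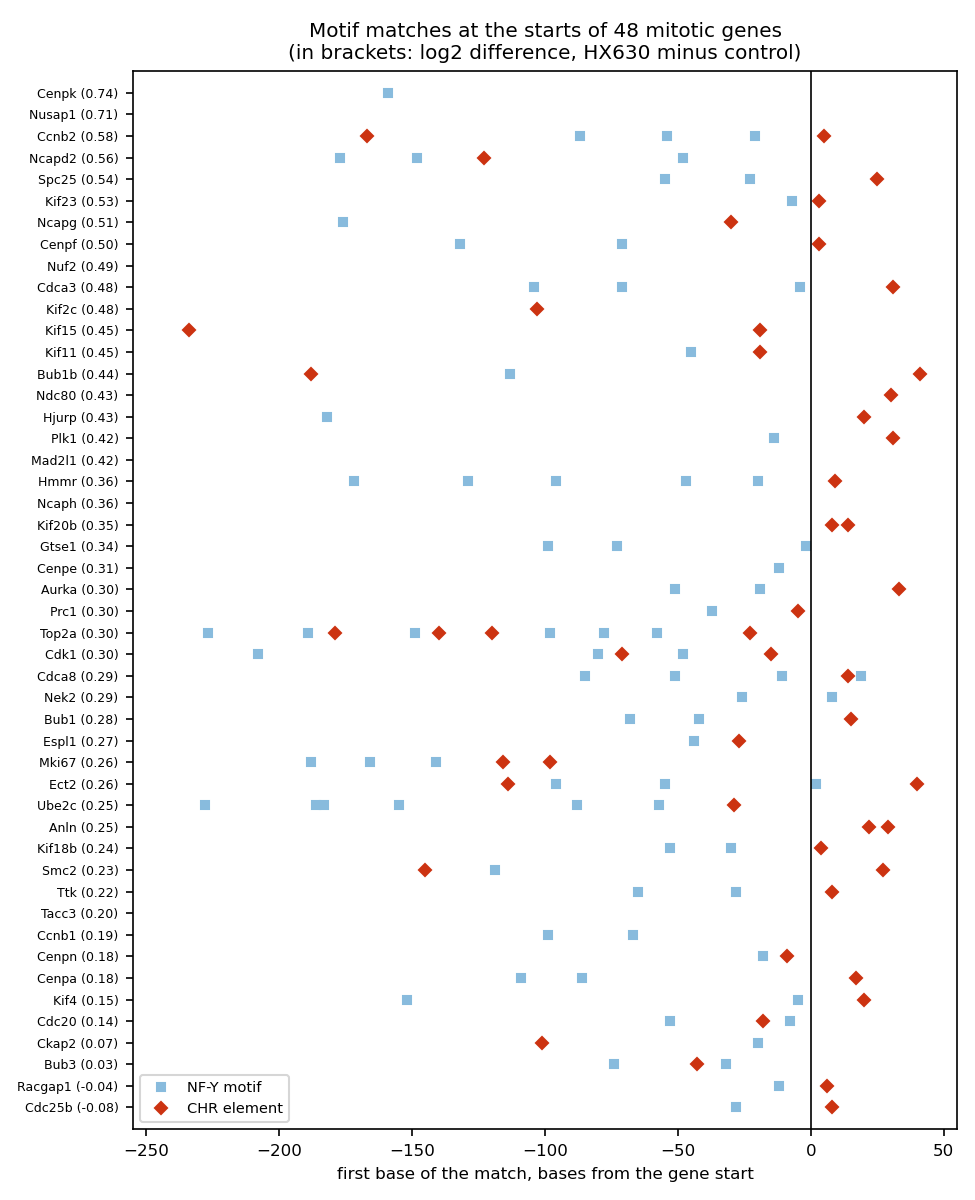
Position of CHR matches (red diamonds) and CCAAT boxes (blue squares, NF-Y motif in the legend) in the promoters of 48 mitotic genes (horizontal axis, bases from the start of the gene, where 1 is its first base), with genes in the order of their log2 difference between HX630 and control, given in brackets. In 33 of the 48 promoters a CHR match lies between 40 bases before and 50 bases after the start, and Cenpk and Nusap1, at the top of the order, have no CHR match.

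Among the kinases and cyclins that start mitosis, 7 of 9 genes were higher at an adjusted p below 0.01 and 0 were lower, with a median difference of 0.30. Beside these counts, and those of the other roles below, stand 24% of all genes higher and 27.2% lower. Ccnb2, 1 of the B-type cyclins that activate Cdk1, showed the largest change. Its signal was 2.74, 2.77, 2.60 and 2.61 on the control arrays and 3.27, 3.32, 3.26 and 3.20 on the HX630 arrays, a difference of 0.58 (SE 0.0512, adjusted p = 3.68e-05). Every HX630 array was above every control array. The phosphatase gene Cdc25c, whose product removes inhibitory phosphates from Cdk1, rose by 0.49, the polo-like kinase gene Plk1 by 0.42, the cyclin gene Ccna2 by 0.39, the centrosomal kinase genes Aurka by 0.30 and Nek2 by 0.29. The adjusted p-values of these 5 genes were between 2.83e-05 and 5.77e-04.

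Cdk1 encodes the kinase that drives cells into mitosis. Its signal was -0.96, -0.68, -0.99 and -1.05 on the control arrays and -0.54, -0.73, -0.59 and -0.62 on the HX630 arrays, a difference of 0.30 (SE 0.0858, adjusted p = 0.0174), and control 2 was above 1 of the HX630 arrays, so the groups overlapped. A second probe of Cdk1 gave 0.21 with an adjusted p of 0.0260.

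The phosphatase gene Cdc25b, a relative of Cdc25c that acts at the entry into mitosis, did not pass the test. Its signal was 3.11, 3.06, 3.04 and 2.95 on the control arrays and 3.04, 2.97, 2.93 and 2.92 on the HX630 arrays, a difference of -0.08 (SE 0.0472, adjusted p = 0.203). The groups overlapped. Scaling to the median of each array or to the spike-in probes shifts all genes upward by a constant, and the difference was then 0.011 and 0.15.

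Ccnb1, the other main B-type cyclin, was uncertain because its probes disagreed. The brightest probe had a signal of 1.86, 1.98, 1.85 and 1.88 on the control arrays and 2.00, 2.14, 2.10 and 2.09 on the HX630 arrays, a difference of 0.19 (SE 0.0454, adjusted p = 0.00849). The HX630 arrays were all above the control arrays on that probe, although control 2 came close to the lowest of them. The other probes of the same transcript gave -0.14 (adjusted p = 0.0636) and -0.16 (adjusted p = 0.0417), and the mean of all 3 gave -0.04. Ccnb1 is counted among the 7 by its brightest probe, and no direction is given for it beyond that.

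**Figure D4:**
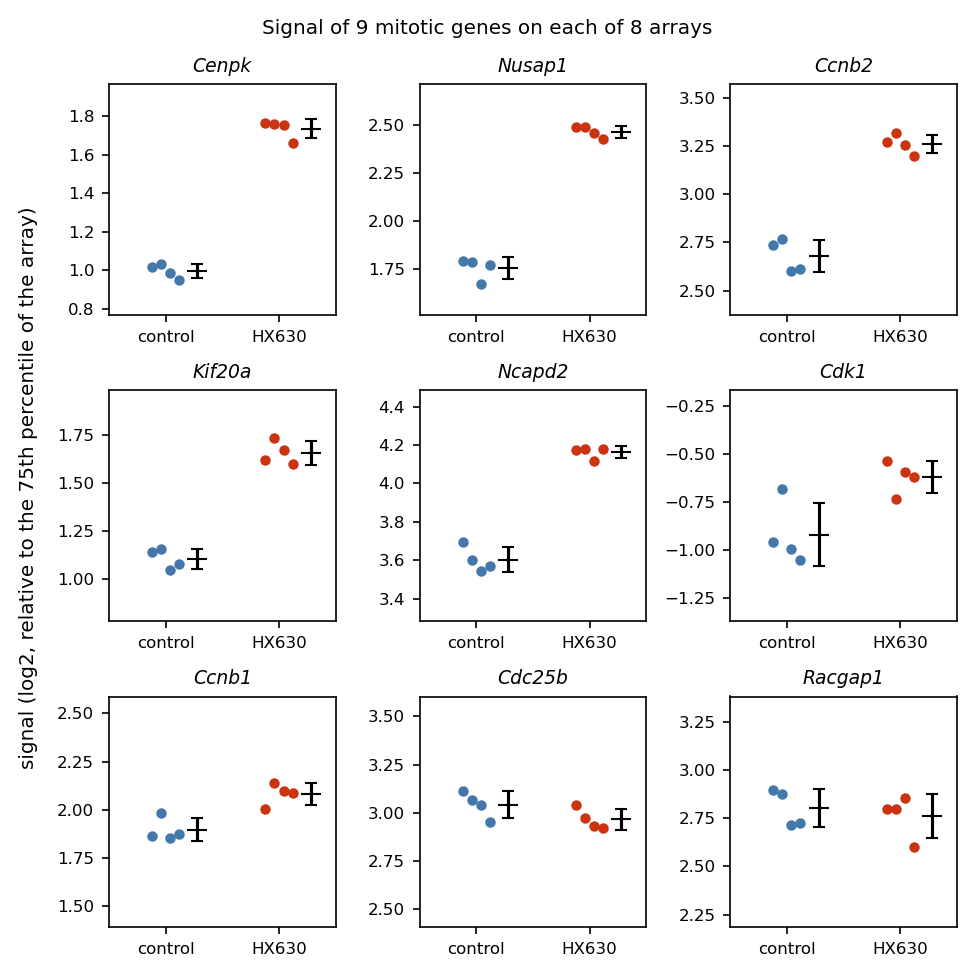
Signal of 9 mitotic genes on each array (vertical axis, log2 relative to the 75th percentile of the array, spanning the same number of units in each panel but from a different base) in 4 control and 4 HX630 samples; points are arrays and bars the mean with the SD. The groups are apart in the panels of Cenpk, Nusap1, Ccnb2, Kif20a, Ncapd2 and, narrowly, Ccnb1, and they overlap in those of Cdk1, Cdc25b and Racgap1.

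In the spindle checkpoint and the control of anaphase, 7 of 9 genes rose and 0 fell, with a median of 0.27. Cdca3, which takes part in the degradation of the mitosis inhibitor Wee1, rose most. Its signal was 1.78, 1.90, 1.72 and 1.71 on the control arrays and 2.21, 2.29, 2.29 and 2.22 on the HX630 arrays, a difference of 0.48 (SE 0.0506, adjusted p = 1.01e-04). The groups were well apart. Among the checkpoint genes proper, which keep sister chromatids together until all kinetochores are attached, Bub1b rose by 0.44, Mad2l1 by 0.42 and Bub1 by 0.28. The genes of anaphase onset also rose, with 0.27 for Espl1, which encodes separase, 0.25 for Ube2c, the ubiquitin-conjugating enzyme of the anaphase-promoting complex, and 0.14 for Cdc20, its activator. A second probe of Ube2c gave 0.12 (adjusted p = 0.0234) and did not pass. No test was made between these subsets.

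The checkpoint genes Ttk and Bub3 did not pass the test. Ttk, the kinase that starts checkpoint signaling, had a difference of 0.22 (SE 0.137, adjusted p = 0.205), with a wide spread among the control arrays. For Bub3, the partner of Bub1 and Bub1b, the signal was 3.37, 3.38, 3.32 and 3.34 on the control arrays and 3.33, 3.38, 3.44 and 3.36 on the HX630 arrays, a difference of 0.03 (SE 0.0359, adjusted p = 0.568). The arrays of the groups were mixed in order. With scaling to the spike-in probes, which shifts all genes upward by a constant, the difference of Bub3 was 0.25 and passed (adjusted p = 0.00149).

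The kinetochore and centromere genes, which link chromosomes to spindle microtubules, showed a median of 0.43, and 9 of 10 passed the test, all upward. Cenpk, a subunit of the inner kinetochore, showed the largest difference of all 56 genes. Its signal was 1.02, 1.03, 0.98 and 0.95 on the control arrays and 1.77, 1.76, 1.75 and 1.66 on the HX630 arrays, a difference of 0.74 (SE 0.0382, adjusted p = 2.08e-06), a fold change of 1.67. HX630 4 was the lowest of the treated arrays and still lay far above the controls. A second probe of Cenpk gave 0.69. The genes of the Ndc80 complex, which holds the microtubule end, all rose: Spc25 by 0.54, Nuf2 by 0.49, Ndc80 by 0.43 and Spc24 by 0.33. A dimmer second probe of Nuf2 gave 0.06 (adjusted p = 0.453), the widest gap between probes of 1 gene in the list.

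Other centromere genes also rose. Cenpf, a large protein of the outer kinetochore, rose by 0.50, the kinetochore motor gene Cenpe by 0.31 and Cenpn, whose product recognizes the centromeric nucleosome, by 0.18. The chaperone of the centromeric histone passed the test and the histone did not. Hjurp, which loads the histone CENP-A, rose by 0.43, and its other probes gave 0.35 and 0.28. Cenpa, the gene of that histone, had a signal of 1.64, 1.79, 1.56 and 1.58 on the control arrays and 1.78, 1.84, 1.88 and 1.78 on the HX630 arrays, a difference of 0.18 (SE 0.058, adjusted p = 0.0315). Control 2 reached the level of the HX630 arrays, and without that array the difference was 0.23 with an adjusted p of 0.00416. Cenpa also passed after quantile normalization (0.23, adjusted p = 0.00775) and with scaling to the spike-in probes (0.40, adjusted p = 3.52e-04). The difference between Hjurp and Cenpa was not tested.

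Of the kinesin motors, which move along or take apart microtubules, 7 of 8 rose, with the highest median of the 8 roles, 0.45. Kif20a, a motor needed at the spindle midzone in cytokinesis, led the group. Its signal was 1.14, 1.15, 1.05 and 1.08 on the control arrays and 1.62, 1.73, 1.67 and 1.60 on the HX630 arrays, a difference of 0.55 (SE 0.0442, adjusted p = 2.21e-05). The groups did not overlap. Kif23, the motor of the centralspindlin complex, rose by 0.53 with a wide SE of 0.120, Kif2c, which depolymerizes microtubules, by 0.48, and Kif15 and Kif11, which push spindle poles apart, by 0.45 and 0.45. Kif20b rose by 0.35 and Kif18b by 0.24.

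Kif4, a chromosome-bound motor, was the exception. Its signal was -0.60, -0.38, -0.36 and -0.35 on the control arrays and -0.47, -0.35, -0.12 and -0.14 on the HX630 arrays, a difference of 0.15 (SE 0.0968, adjusted p = 0.216). HX630 1 was below 3 of the control arrays.

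The spindle assembly factors rose in 5 of 7 cases, with a median of 0.34. Nusap1, which binds and bundles spindle microtubules around chromosomes, was the second gene above 1.5-fold. Its signal was 1.79, 1.79, 1.67 and 1.77 on the control arrays and 2.49, 2.49, 2.46 and 2.42 on the HX630 arrays, a difference of 0.71 (SE 0.0394, adjusted p = 3.01e-06), a fold change of 1.63. Control 3 was the lowest array, and the HX630 arrays lay close together. Hmmr, a spindle pole protein, rose by 0.36, Dlgap5, which stabilizes kinetochore fibers, by 0.34, Tpx2, the activator of Aurora A, by 0.28 and Tacc3, which forms bridges between microtubules, by 0.20. A second probe of Tpx2, for another transcript accession, gave 0.58.

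Gtse1 and Ckap2 did not pass. Gtse1, a microtubule-binding protein of G2 phase, was dim and had a difference of 0.34 (SE 0.22, adjusted p = 0.217), with control 1 far below the other arrays. Ckap2, a microtubule stabilizer, had a signal of -1.03, -0.82, -0.78 and -0.83 on the control arrays and -0.92, -0.83, -0.71 and -0.74 on the HX630 arrays, a difference of 0.07 (SE 0.0698, adjusted p = 0.437). Its groups overlapped.

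The genes of chromosome structure comprise the condensin subunits, which fold chromatin into mitotic chromosomes, and Top2a and Mki67. In all 7, every HX630 array was above every control array, and 6 passed the test, with a median of 0.30. Ncapd2, a subunit of condensin I, rose most. Its signal was 3.70, 3.60, 3.54 and 3.57 on the control arrays and 4.17, 4.18, 4.12 and 4.18 on the HX630 arrays, a difference of 0.56 (SE 0.0419, adjusted p = 1.52e-05). The other subunits particular to condensin I followed, with 0.51 for Ncapg and 0.36 for Ncaph. The core subunits common to both condensins had smaller differences, 0.23 for Smc2 with an adjusted p of 0.00695 and 0.12 for Smc4.

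Smc4 did not pass the test although its groups did not overlap. Its signal was 3.00, 3.00, 2.86 and 2.89 on the control arrays and 3.12, 3.03, 3.07 and 3.02 on the HX630 arrays, a difference of 0.12 (SE 0.0459, adjusted p = 0.0477). The highest control array and the lowest HX630 array lay close together. Scaling to the median of each array, quantile normalization or scaling to the spike-in probes brought it past the threshold, with differences of 0.21, 0.20 and 0.35. Top2a, the topoisomerase that untangles chromosomes, rose by 0.30, and Mki67, the gene of the proliferation antigen Ki-67, rose by 0.26 with a signal of 4.76, 4.60, 4.67 and 4.68 on the control arrays and 4.93, 4.94, 4.95 and 4.93 on the HX630 arrays.

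For the chromosomal passenger complex, which corrects faulty attachments, both tested subunits rose. The scaffold gene Incenp had a signal of 3.92, 3.94, 3.83 and 3.84 on the control arrays and 4.18, 4.19, 4.22 and 4.17 on the HX630 arrays, a difference of 0.31 (SE 0.0379, adjusted p = 2.48e-04), and its second probe gave 0.28 (adjusted p = 0.0128). Cdca8, which encodes borealin, had a signal of 3.07, 3.09, 2.97 and 2.95 on the control arrays and 3.32, 3.37, 3.33 and 3.25 on the HX630 arrays, a difference of 0.29 (SE 0.0467, adjusted p = 9.77e-04), and its second probe gave 0.38. In each the groups were apart. The complex's kinase Aurkb could not be measured by its probe, as said above. Its small subunit Birc5, also known as survivin, is not among the 57 genes. Its signal was 3.90, 3.84, 3.70 and 3.76 on the control arrays and 4.24, 4.25, 4.21 and 4.11 on the HX630 arrays, a difference of 0.41 (SE 0.0552, adjusted p = 4.15e-04).

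The cytokinesis genes had the lowest median, 0.26, and 2 of 4 passed the test. Prc1, which bundles the microtubules of the midzone, had a signal of 2.93, 2.95, 2.90 and 2.92 on the control arrays and 3.20, 3.26, 3.25 and 3.20 on the HX630 arrays, a difference of 0.30 (SE 0.0315, adjusted p = 9.25e-05), with no overlap. Anln, an actin-binding protein of the cleavage furrow, rose by 0.25. Ect2, which activates RhoA at the furrow, had a difference of 0.26 (SE 0.0672, adjusted p = 0.0111) and no overlap.

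Racgap1, the partner of Kif23 in centralspindlin and of Ect2 at the furrow, did not pass the test. Its signal was 2.90, 2.88, 2.72 and 2.72 on the control arrays and 2.80, 2.80, 2.85 and 2.60 on the HX630 arrays, a difference of -0.04 (SE 0.071, adjusted p = 0.642). HX630 4 was the lowest array and control 1 the highest. A second probe gave 0.11 (adjusted p = 0.108), and without HX630 replicate 4 the difference of the brightest probe was 0.013. It was 0.048 after quantile normalization, and with the constant shifts of the median and spike-in scalings it was 0.046 and 0.18.

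Over all probes rather than 1 a gene, the 56 genes had 73 tested probes, of which 69 were higher in HX630. At an adjusted p below 0.01, 54 probes were higher and 0 were lower. The shares over all tested probes are not given here. By gene, 24% of all genes were higher at that threshold and 27.2% were lower. Several tested probes represented 14 of the genes, and in 12 of them all probes had the same sign, the exceptions being Ccnb1 and Racgap1. Leaving out 1 array at a time left 36 to 42 of the 56 genes higher at an adjusted p below 0.01, 0 lower, and a median between 0.30 and 0.33.

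A list of 115 other genes of mitosis was examined in the same way. Of these genes, 112 were tested (Kif14, Kifc1 and Clasp1 were not). At an adjusted p below 0.01, 59 of 112 (52.7%) were higher, beside 24% of all genes, and 8 were lower, beside 27.2%. Above 1.5-fold, 12 were higher, beside 8.38% of all genes, and 0 were lower, beside 11.2%. The median was 0.22. Further kinetochore genes were higher in 21 of 30 cases and lower in 0, with a median of 0.37. Genes of cohesin and separase control were higher in 1 of 12 and lower in 1, with a median of 0.08. For the anaphase-promoting complex and its partners 5 of 15 (33.3%) were higher and 4 were lower, shares near the 24% and 27.2% of all genes. Centrosome genes were higher in 12 of 19 and lower in 0, and genes of entry and exit control were higher in 9 of 14 and lower in 3. No test was made between these genes and the 57.

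Haus7, a subunit of the augmin complex that nucleates microtubules within the spindle, showed the largest difference of these genes. Its signal was -1.22, -1.42, -1.32 and -1.41 on the control arrays and -0.28, -0.26, -0.31 and -0.37 on the HX630 arrays, a difference of 1.04 (SE 0.0549, adjusted p = 2.28e-06). Cenpj, which is needed for centriole growth, had a signal of -0.48, -0.28, -0.11 and -0.20 on the control arrays and 0.29, 0.59, 0.85 and 0.77 on the HX630 arrays, a difference of 0.89 (SE 0.133, adjusted p = 7.05e-04). In both the groups were apart. The largest falls were in Cdc14a, a phosphatase, and in Anapc1, the largest subunit of the anaphase-promoting complex. The signal of Cdc14a was -1.93, -2.09, -2.20 and -2.16 on the control arrays and -2.55, -2.65, -2.80 and -2.57 on the HX630 arrays, a difference of -0.54 (SE 0.0772, adjusted p = 5.28e-04). That of Anapc1 was 2.74, 2.62, 2.54 and 2.60 on the control arrays and 2.30, 2.23, 2.03 and 2.15 on the HX630 arrays, a difference of -0.44 (SE 0.069, adjusted p = 8.62e-04). The HX630 arrays were all below the control arrays in both. The number of lower genes among these 112 was 5 with the median of each array, 2 with the spike-in probes, and 5 without control replicate 4 or without HX630 replicate 2.

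The genes of DNA replication, which are transcribed earlier in the cell cycle, had a median difference of 0.33. Of 48 tested, 38 (79.2%) were higher at an adjusted p below 0.01, beside 24% of all genes, and 1 was lower, beside 27.2%. Above 1.5-fold, 7 were higher, beside 8.38% of all genes. Cdc6, which loads the replicative helicase, had a signal of -2.77, -2.70, -2.82 and -2.79 on the control arrays and -1.29, -1.34, -1.33 and -1.35 on the HX630 arrays, a difference of 1.44 (SE 0.0372, adjusted p = 1.33e-07), a fold change of 2.72. Pole2, a subunit of DNA polymerase epsilon, had a signal of -1.07, -1.10, -1.15 and -1.22 on the control arrays and -0.15, -0.17, -0.22 and -0.30 on the HX630 arrays, a difference of 0.93 (SE 0.0497, adjusted p = 2.47e-06). In both the groups were apart. Orc5, a subunit of the origin recognition complex, was the gene that fell. Its signal was -0.79, -0.78, -0.90 and -0.82 on the control arrays and -1.28, -1.37, -1.36 and -1.42 on the HX630 arrays, a difference of -0.54 (SE 0.0452, adjusted p = 2.85e-05). Mcm2, of the helicase, had the smallest rise past the threshold. Its signal was 3.13, 3.17, 3.04 and 3.04 on the control arrays and 3.29, 3.27, 3.30 and 3.31 on the HX630 arrays, a difference of 0.19 (SE 0.04, adjusted p = 0.00373). Over all 300 bases, either CHR form occurred in 15.4% of the 39 promoters of these genes, beside 19.4% of all promoters. CCAAT occurred in 53.8%, beside 37.9% of all promoters. No test was made between the replication genes and the mitotic genes.

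**Figure D5:**
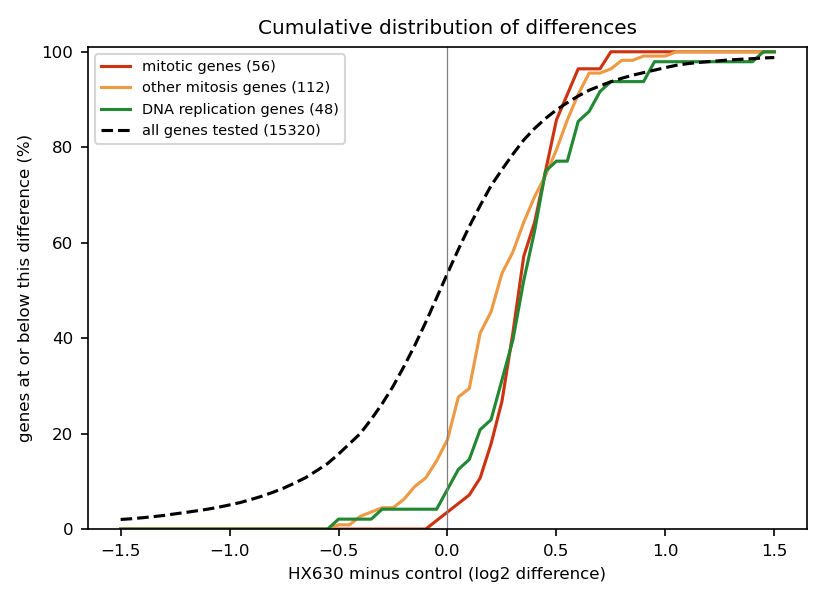
Share of genes (vertical axis, %) with a difference between HX630 and control at or below the value on the horizontal axis (log2), for 56 mitotic genes, 112 other mitosis genes, 48 DNA replication genes and all 15320 genes tested. At a difference of 0 the curves stand at 3.57%, 18.8%, 8.33% and 53.6%, and at 0.5 at 85.7%, 79.5%, 77.1% and 87.8%, so the mitotic genes lie in a narrow band above 0.

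Of 21 genes that regulate transcription in the cell cycle, 20 were tested, with a median of 0.21. At an adjusted p below 0.01, 11 (55%) were higher, beside 24% of all genes, and 1 was lower, beside 27.2%. Foxm1, the activator of G2 phase genes, had a signal of -0.92, -0.87, -0.99 and -1.01 on the control arrays and -0.66, -0.58, -0.59 and -0.70 on the HX630 arrays, a difference of 0.32 (SE 0.0472, adjusted p = 7.04e-04). Its groups did not overlap. Mybl2, the gene of B-Myb, had a signal of 3.01, 2.97, 2.97 and 2.93 on the control arrays and 2.88, 2.97, 2.90 and 2.89 on the HX630 arrays, a difference of -0.06 (SE 0.0354, adjusted p = 0.2). Its groups overlapped. E2f7, an atypical E2F and repressor, had the largest difference of the 20. Its signal was 0.92, 0.78, 0.76 and 0.76 on the control arrays and 1.74, 1.72, 1.66 and 1.69 on the HX630 arrays, a difference of 0.90 (SE 0.0462, adjusted p = 2.05e-06). For Nfya, a subunit of NF-Y, the signal was -1.08, -1.18, -1.15 and -1.18 on the control arrays and -0.50, -0.54, -0.59 and -0.53 on the HX630 arrays, a difference of 0.60 (SE 0.0386, adjusted p = 6.34e-06). Tfdp2, a dimerization partner of the E2Fs, was the gene that fell. The signal was 0.19, 0.14, 0.04 and 0.08 on the control arrays and -0.59, -0.68, -0.75 and -0.69 on the HX630 arrays, a difference of -0.79 (SE 0.0488, adjusted p = 5.34e-06). E2f8, the other atypical E2F, had the smallest rise past the threshold, with a signal of 0.97, 0.93, 0.90 and 0.91 on the control arrays and 1.12, 1.11, 1.11 and 1.02 on the HX630 arrays, a difference of 0.16 (SE 0.0371, adjusted p = 0.00674). The groups did not overlap in any of these 4 genes.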

How the data were processed

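Gene expression was measured on 8 one-color mouse arrays (Mouse GE 4x44K v2), 1 for each of 4 control and 4 HX630 samples, grouped by their labels. Per array, the authors deposited Feature Extraction 10.7.3.1 output, where the processed intensity of a spot is corrected for background but not scaled between arrays, with the median intensity of each spot and its background. A further deposited table, made in GeneSpring, held log2 values, which matched log2 processed intensity minus the 75th percentile of the array.

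In R 4.3.3 with limma 3.58.1, control spots (1377 of 44397) and outlier spots were left out, spots of 1 of 39429 probes were averaged and the 75th percentile of each array over these probes was subtracted. The 28553 probes well above background on at least 4 arrays were tested with lmFit and eBayes with no replicate term. Benjamini-Hochberg adjustment covered all of these probes. Calls used an adjusted p below 0.01, with or without a fold change above 1.5. The code was tested on simulated data. The small number of arrays limits the precision.

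Of the probes, 26055 were named through their accession in a RefSeq table (GRCm38.p6), and 15320 genes were tested, each by its probe with the highest mean. The array's design uses another build, so coordinates are given only for promoters of that table, which were searched in Python 3.11.15. The promoters of 9 of the 57 genes were not analysed here.

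The 57 genes and the lists of other mitosis, DNA replication, regulator and marker genes were chosen with earlier results of these data known. Full values are given for genes past both thresholds, for the highest and lowest gene of each role, for genes with a lower mean, not tested or with probes of opposite sign, for the highest and lowest 2 genes past an adjusted p of 0.01 in the lists of other mitosis, DNA replication and regulator genes, and for Foxm1, Mybl2 and Birc5. Cdk1 and Mki67 were added after their values were seen.

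Alternatives were other scalings (median, quantile, 75th percentile over detected probes, spike-in probes, the deposited log2 table), normexp background correction on the median intensity with an offset of 50, other filters, outlier spots kept, the methods' t-test, a trended variance, a gene's mean over its probes, the replicate block and each array left out. All were planned except the promoter window near the start.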

Additional observations from a re-analysis of the deposited data

Results flagged for a closer look

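In 14 of the 112 groups of 4 arrays (56 genes in 2 groups), 1 array stood apart from the other 3 by more than the 95% critical value of Dixon's ratio, the gap of the extreme array divided by the range of its group. Chance alone gives about 1 in 20 groups, and genes on the same array are not independent. Control 1 was the array apart in 5 genes, with ratios of 0.870 in Ttk, 0.908 in Spc24, 0.843 in Kif20b, 0.885 in Kif4 and 0.844 in Gtse1. It was the lowest array in each. In Ttk, Spc24, Kif20b and Kif4, though not in Gtse1, HX630 1 was also the lowest treated array. Control 2 was the highest array in Plk1 (0.955), Aurka (0.867) and Ccnb1 (0.830). Control 3 was the lowest in Nusap1 (0.857). HX630 4 was the lowest treated array in Cdc25c (0.832), Cenpk (0.884) and Ect2 (0.893). HX630 2 was the highest in Ube2c (0.939), and HX630 3 the lowest in Ncapd2 (0.920). Over the 56 genes, control 2 was the highest control array in 29 and HX630 4 the lowest treated array in 28. Without control replicate 1, 42 of the 56 genes were higher at an adjusted p below 0.01, and without HX630 replicate 4 the count was 39.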

How the results depend on the processing

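The direction of the shift was the same under every alternative, and 0 of the 56 mitotic genes were lower at an adjusted p below 0.01 under any of them. The number higher at that threshold was 45, between 37 (no filter on dim probes) and 50 (spike-in scaling) under the other settings, and 36 to 42 with 1 array left out. The number above 1.5-fold was less stable: 2, but 8 with the median of each array, 7 with quantile normalization, 22 with the spike-in probes, 4 with normexp, and 2 to 4 with 1 array left out (4 without control replicate 1). The median difference moved from 0.31 to 0.39, 0.38 and 0.53 under the median, quantile and spike-in scalings and lay between 0.30 and 0.33 with 1 array left out. Of the other mitosis genes, 8 were lower, 5 with the median of each array, 2 with the spike-in probes and 5 to 8 with 1 array left out (5 without control replicate 4 or HX630 replicate 2). The methods' t-test after Benjamini-Hochberg adjustment called 40 mitotic genes higher. Differences that changed sign were those of Cdc25b (0.011 with the median, 0.15 with spike-in probes), Racgap1 (0.046 with the median, 0.048 with quantile normalization, 0.18 with spike-in probes, 0.036 for the mean of its probes, and -0.072 to 0.013 with 1 array left out, the highest without HX630 replicate 4) and Ccnb1 (-0.038 for the mean of its probes). The median and spike-in scalings shift all genes by a constant (0.087 and 0.22), which by construction moves these differences, the median and the counts above 1.5-fold. Ccnb1 also lost its call under 8 other settings. Smc4, Cenpa and Bub3 gained a call under the settings named with their values above. The cause of the other changes was not tested. Same-numbered arrays held the same position on the slides of both groups. They correlated by 0.52, -0.0093, 0.24 and 0.38 in their deviations from the group means. The labels do not name pairs, and the main fit had no replicate term. An effect of number or position was not tested on its own. With the replicate block 43 genes were higher and 2 were above 1.5-fold. The number of arrays, and one slide for each group, limit the precision.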
